A study of Mus musculus with 12 samples.

Results

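The 45 genes described here run the cell division cycle or encode the growth-promoting transcription factors Myc and Mycn. They were taken from a fixed list of symbols: 10 genes of replication licensing and the DNA clamp, 8 cyclins, 9 cyclin-dependent kinases (Cdks) and their regulators, 6 E2f factors and pocket proteins, 10 genes of mitosis, and the 2 Myc genes. They are 45 of the 35580 mouse genes over which transcript values were summed. All 45 were among the 17424 genes that passed the filter on low counts, so no member was lost to it.

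RNA-seq libraries were made from R1 mouse embryonic stem cells (ESCs), an established line, either wild type (WT) or lacking *Cidea* (CIDEA KO), which encodes a lipid droplet protein. Each genotype was sampled as ESCs in 10% FBS with LIF (0 h) and as 3D spheroids 24 h and 48 h into culture with growth factor-reduced Matrigel in 15% FBS without LIF, with 2 libraries in each of the 6 groups. The labels call the spheroids embedded, whereas the methods give, for molecular experiments, seeding on a Matrigel coat under medium with dilute Matrigel. The WT cells were the parental line. The CIDEA KO cells were 1 subclone (19.7) from which CRISPR-Cas9 had removed the *Cidea* locus, so that genotype and clone cannot be told apart. Time in spheroid culture likewise cannot be told apart from the change of medium, serum, LIF and matrix. The libraries of a group were described by the study as independent samples and biological replicates. They share one parental line or one subclone, and the p-values measure the spread between these libraries.

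The libraries totalled from 29 M to 38.5 M estimated counts. *Cidea* had 20 to 117 counts in the WT libraries and 0 in all 6 CIDEA KO libraries, where 3 counts would correspond to 0.0779 to 0.1035 CPM, a count scaled to the library total. The 6 pluripotency markers checked summed to 3010 to 3370 TPM, an abundance scaled to transcript length and library total, in ESCs and 24 h spheroids and to 2160 to 2410 TPM in 48 h spheroids. Markers of mesoderm summed to at most 4.68 TPM, those of primitive endoderm to at most 9.37 TPM, those of trophectoderm to 4.59 to 6.71 TPM in ESCs and 10.9 to 13.4 TPM at 48 h, and those of fibroblasts to at most 24.8 TPM (*Thy1* up to 23.3 TPM). The neural list (*Tubb3* up to 148 TPM) summed to 135 to 156 TPM in ESCs and 54.0 to 69.3 TPM at 48 h. Mitochondrial genes took 2.80 to 3.85% of counts in ESCs, 2.39 to 2.63% at 24 h and 3.46 to 4.34% at 48 h. The part of these shifts in the results over time was not tested. The library CIDEA KO spheroids 24 h replicate 1 stood apart, with 15473 genes detected at equal depth against 17635 to 19672 in the other 11, and results that depend on it are given with and without it.

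In a dividing cell, D-type cyclins with Cdk4 or Cdk6 and E-type cyclins with Cdk2 phosphorylate the pocket proteins Rb1, Rbl1 and Rbl2. E2f factors are thereby released and switch on genes of DNA replication. Cyclin A, cyclin B and Cdk1 then carry the cell into mitosis, while inhibitors such as Cdkn1b (p27) restrain the kinases. Mouse ESCs are known for a very short first gap phase, and for E-type cyclin and E2f activity that varies little over the cycle, whereas D-type cyclins are known to increase as cells leave the naive state. Myc and Mycn can each drive genes of ribosome production and cell growth, and Mycn is known for its high level in the epiblast after implantation.

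The abundance of the cell cycle machinery was high and, for most members, varied by less than 2 times in normalised CPM across the 12 libraries. *Cdk4* had the highest level per transcript length (841 to 1037 TPM), followed by *Top2a*, *Mcm5*, *Cdk1* and *Birc5* with medians of 456, 365, 334 and 331 TPM. As group means, a transcript annotated as nonsense-mediated decay supplied 22.7 to 25.5% of *Cdk4* TPM and a retained-intron transcript 26.2 to 30.8%. A retained-intron transcript supplied 31.5 to 42.2% of *Cdk1* TPM. In normalised CPM, which is not scaled to length, the *Cdk4* median of 523 lay below those of *Top2a* (1160) and *Mcm5* (645). On that scale *Cdk1* and *Birc5*, with medians of 174 and 185, lay below *Mcm2* (500), *Mcm3* (445) and *Mcm7* (418), among others. *Ccnd2*, *Rbl2*, *Rbl1*, *Cdk6*, *Rb1* and *E2f2* were lowest, with medians of 3.94, 6.71, 7.28, 7.85, 8.54 and 9.94 TPM. The highest normalised CPM was less than 1.5 times the lowest for 24 of the 45 members. It was at least 2 times the lowest for 8: *Ccnd1*, *Ccnd2*, *Ccnd3*, *Ccne2*, *Cdk6*, *Cdkn1b*, *E2f2* and *Mycn*. No gene of replication licensing and none of mitosis was among those 8. These ratios were taken for the members only, so whether they varied less than other genes was not tested. Such a comparison would have to allow for level, as the median average log2 CPM was 7.26 for members and 3.67 over all genes tested.

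**Figure D1:**
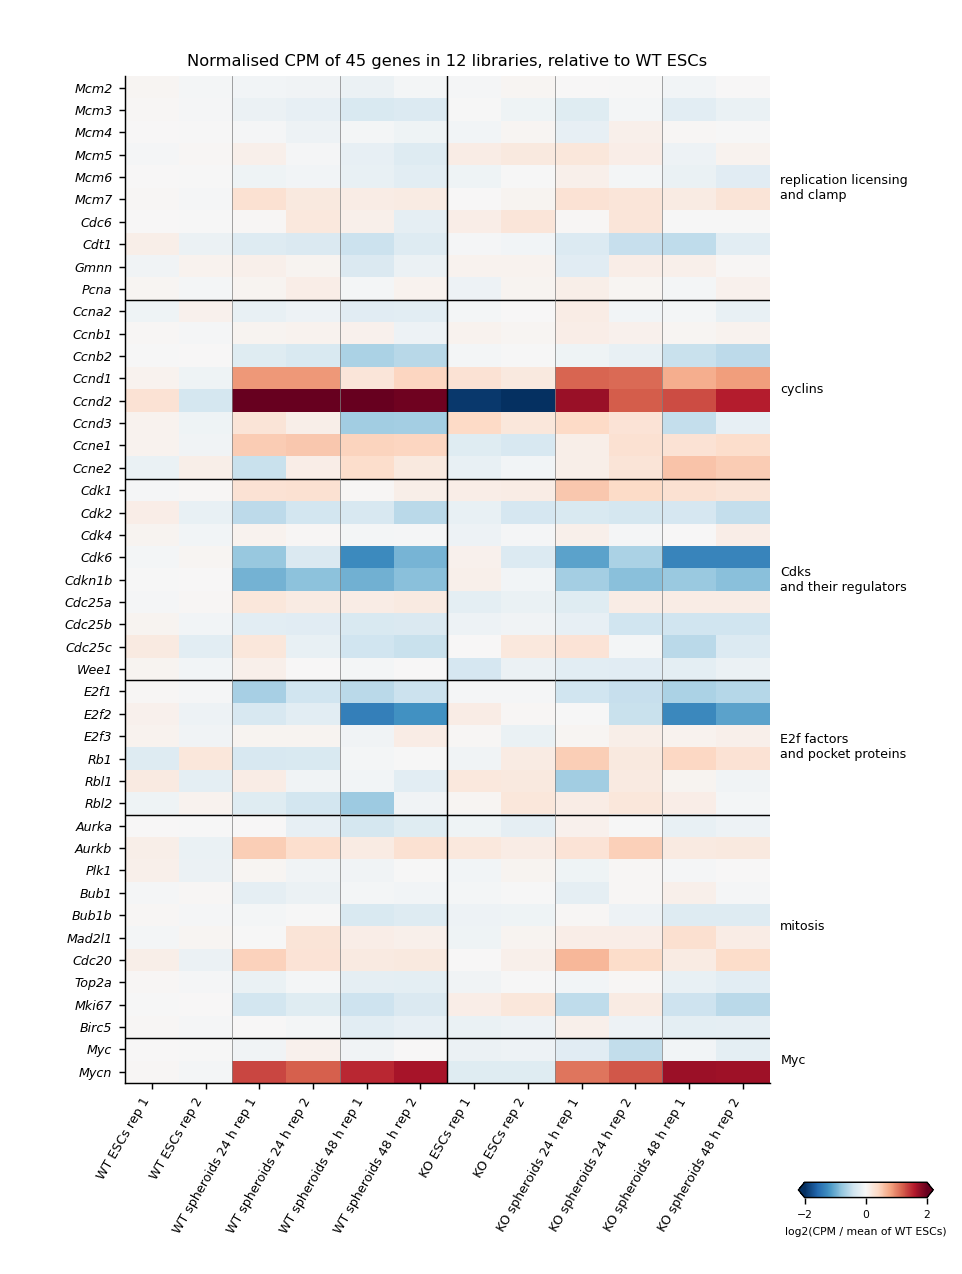
Normalised CPM of each of the 45 genes (rows, ordered by role) in each of the 12 libraries (columns), as log2 of the ratio to the mean of the 2 WT ESC libraries, with colours saturating at 2 and -2. Most rows are pale, while *Mycn* and *Ccnd2* are red and *Cdkn1b*, *Cdk6* and *E2f2* blue in the 48 h spheroids of both genotypes.

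A gene was called in a comparison where the p of edgeR's quasi-likelihood test, adjusted over all 17424 genes after Benjamini and Hochberg, was under 0.05. Over all comparisons 78 calls were made on members, of which 30 held under every alternative processing and none turned direction. Testing TPM with limma lost 35 of the 78 and entering transcript lengths into the fit lost 33. These losses are repeated below for some genes only, so a call given without them may also be among those lost. In WT cells, 8 members rose and 4 fell between ESCs and 24 h spheroids, where 7.54% of all genes tested were called higher and 7.47% lower. Between 24 h and 48 h, 1 rose and 6 fell against a background of 3.28% and 4.86%. Between ESCs and 48 h, 4 rose and 13 fell against 11.1% and 12.5%, which makes 8.89% of the members higher and 28.9% lower. The median log2 fold change of the 45 members stayed between -0.09 and -0.01 in these 3 comparisons, beside 0.00 to 0.01 over all genes. Between ESCs and 48 h, 38 of 45 members moved by less than 0.5 on the log2 scale, a share that was not taken over all genes. The members are deeply counted, with a median average log2 CPM of 7.26 against 3.67 over all genes tested, so that smaller changes can pass the test in them than in the typical gene. The 3 comparisons share libraries and are not independent. Without WT spheroids 24 h replicate 1, the 12 calls at 24 h became 5. The 7 calls between 24 h and 48 h became 4 without WT spheroids 24 h replicate 1 or either WT 48 h library, and the 17 calls at 48 h became 10 without WT spheroids 48 h replicate 1.

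In CIDEA KO cells, 7 members rose and 4 fell between ESCs and 24 h spheroids, where 9.23% of all genes were called higher and 9.33% lower. Between 24 h and 48 h, 1 rose and 5 fell against 4.57% and 5.37%, and between ESCs and 48 h, 7 rose and 9 fell against 12.1% and 12.8%. Medians over the members were -0.06 to 0.03 on the log2 scale. Of the members called at 48 h, 11 were called in the same direction in both genotypes, which is 64.7% of the WT calls and 68.8% of the CIDEA KO calls. The same shares over all genes tested were 74.9% and 70.9%, and no member was called in opposite directions. The 11 were *Ccnd1*, *Ccnd2*, *Ccne1* and *Mycn*, higher, and *Ccnb2*, *Ccnd3*, *Cdk6*, *Cdkn1b*, *Cdt1*, *E2f1* and *E2f2*, lower. At 24 h, 75% of the members' WT calls and 81.8% of their CIDEA KO calls were shared, beside 73.2% and 59.2% over all genes. Between 24 h and 48 h the shares were 85.7% and 100%, beside 64.5% and 52.9%. The 11 calls at 24 h became 5 without CIDEA KO ESCs replicate 1, and the 16 calls at 48 h became 10 without either CIDEA KO ESC library or without CIDEA KO spheroids 48 h replicate 1. The calls between 24 h and 48 h became more without CIDEA KO spheroids 24 h replicate 2, a fit in which only the library that stood apart represented that group. In bulk RNA, fewer cells in a phase of the cycle and less RNA per cell cannot be told apart.

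**Figure D2:**
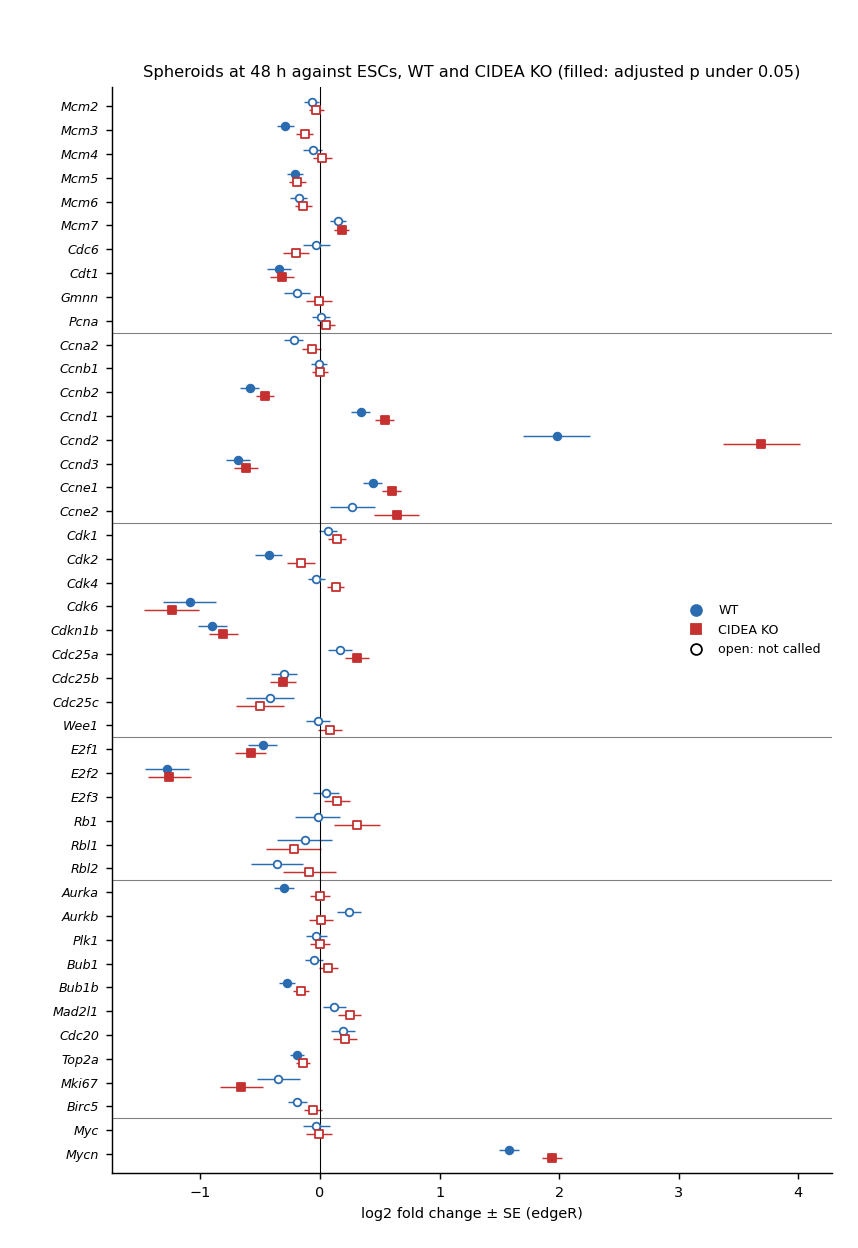
Log2 fold change between ESCs and 48 h spheroids for the 45 genes in WT (circles) and CIDEA KO (squares) cells, with bars of 1 SE from edgeR; horizontal lines separate the role groups and filled symbols were called. The symbols of most genes lie within 0.5 of 0, and *Ccnd2* (1.98 in WT, 3.69 in CIDEA KO), *Mycn* (1.58 and 1.94) and *E2f2* (-1.28 and -1.26) lie farthest from it.

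Promoter windows of 300 bases, 250 before and 50 after the start, were taken from RefSeq (GRCm38.p6) for 34 of the 45 members, 4 of which have 2 windows. None was given for *Aurkb*, *Ccna2*, *Ccnd1*, *Ccnd2*, *Ccne2*, *Cdc25c*, *Gmnn*, *Mcm4*, *Myc*, *Rb1* and *Wee1*. Both strands were searched for E2F letters (TTTCCCGC, TTTGGCGC, TTTCGCGC or TTTGCCGC), for the cell cycle homology region or CHR (TTTGAA or TTCGAA), for CCAAT and for the E-box CACGTG, the letters that Myc proteins are known to bind. E2F letters stood in 13 of the 38 member windows (34.2%) and in 2.26% of all 32851 windows. CHR letters stood in 42.1% and 19.2%, CCAAT in 65.8% and 37.4%, and the E-box in 7.89% and 7.15%. Matches are descriptions of these letters, not of binding. The stretches below lie upstream of the start and outside annotated exons, with matched letters in capitals, and show 4 members called between ESCs and 48 h in both genotypes and, for contrast, 1 licensing gene that was not called.

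*Mycn*, the 172 of 250 upstream bases that lie outside its annotated exon, chr12:12941915-12942086, minus strand, with E2F letters starting 183, 179 and 168 bases before the start, the first 2 overlapping on opposite strands:
Mycn: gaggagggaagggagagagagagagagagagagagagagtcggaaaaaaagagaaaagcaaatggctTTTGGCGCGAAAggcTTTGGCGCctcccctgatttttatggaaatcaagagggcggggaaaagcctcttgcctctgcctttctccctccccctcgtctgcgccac
*Ccnb2*, 250 bases, chr9:70421555-70421804, minus strand, with 1 CHR match 167 bases and 3 CCAAT boxes 87, 54 and 21 bases before the start:
Ccnb2: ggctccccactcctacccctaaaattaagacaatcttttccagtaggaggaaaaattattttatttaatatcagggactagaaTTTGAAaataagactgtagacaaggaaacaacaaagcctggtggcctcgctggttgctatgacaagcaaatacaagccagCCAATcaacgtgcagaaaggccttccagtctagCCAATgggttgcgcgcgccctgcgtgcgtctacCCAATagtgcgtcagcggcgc
*E2f2*, 250 bases, chr4:136172024-136172273, plus strand, with 1 CCAAT box 13 bases before the start:
E2f2: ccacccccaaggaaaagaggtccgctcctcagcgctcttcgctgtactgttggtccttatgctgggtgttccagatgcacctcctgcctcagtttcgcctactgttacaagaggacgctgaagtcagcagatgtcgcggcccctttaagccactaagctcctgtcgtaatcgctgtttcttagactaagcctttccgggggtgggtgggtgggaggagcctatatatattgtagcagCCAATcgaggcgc
*Cdkn1b*, 250 bases, chr6:134920151-134920400, plus strand, with CCAAT boxes 161 and 35 bases before the start:
Cdkn1b: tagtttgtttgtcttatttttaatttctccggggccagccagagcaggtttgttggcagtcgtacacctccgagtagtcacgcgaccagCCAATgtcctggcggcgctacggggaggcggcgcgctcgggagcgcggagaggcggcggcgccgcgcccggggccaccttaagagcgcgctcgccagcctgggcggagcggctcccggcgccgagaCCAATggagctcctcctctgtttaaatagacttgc
*Mcm6*, 250 bases, chr1:128359706-128359955, minus strand, with E2F letters 110, 106 and 47 bases and CCAAT, on the other strand, 57 and 14 bases before the start:
Mcm6: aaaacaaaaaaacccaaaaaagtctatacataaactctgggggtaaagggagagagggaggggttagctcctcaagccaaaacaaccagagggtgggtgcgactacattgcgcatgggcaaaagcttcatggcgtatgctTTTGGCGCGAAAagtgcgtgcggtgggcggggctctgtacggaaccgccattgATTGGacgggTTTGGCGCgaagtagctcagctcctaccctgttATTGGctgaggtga

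The same 12 letters, TTTGGCGCGAAA, in which 2 E2F matches overlap, stood in the *Mycn* and the *Mcm6* stretches. *Mycn* rose at both steps whereas *Mcm6*, at 175 to 226 TPM, was called in no comparison, so these 2 genes with the same letters took different courses. *Ccnb2*, with 3 CCAAT boxes, fell, and *Ccnb1*, with 2 in its window, was not called. Of the members called lower at 48 h in both genotypes, *E2f2* and *Cdt1* held E2F letters in a window and *Cdkn1b*, *Ccnb2*, *Ccnd3*, *Cdk6* and *E2f1* did not. In *E2f2* and *Cdt1* the match did not lie wholly before the start, so the printed *E2f2* stretch shows none. That stretch comes from the first of the 2 *E2f2* windows, and the other held 1 CHR match and 3 CCAAT boxes. All 250 upstream bases of the *E2f1* window lie within an annotated *E2f1* exon, so this window says little about its promoter.

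The 2 Myc genes differed in their course. *Mycn*, on chromosome 12 (12936093 to 12941914, GRCm38), measured 41.9 and 39.8 TPM in the 2 WT ESC libraries, 108 and 96.3 TPM at 24 h, and 121 and 129 TPM at 48 h. The CIDEA KO libraries gave 35.7 and 36.2 TPM in ESCs, 88.1 and 104 TPM at 24 h, and 133 and 135 TPM at 48 h. In each genotype the 3 times did not overlap, and the gene rose at both steps. Relative to ESCs of the same genotype, the log2 fold change in WT cells was 1.27 ± 0.085 (SE) at 24 h, then 1.58 ± 0.086 at 48 h (edgeR's quasi-likelihood test, adjusted p = 2.8e-09 and 4.4e-11), and 1.40 ± 0.086 and 1.94 ± 0.087 in CIDEA KO cells (adjusted p = 5.2e-10 and 1.8e-12). The 24 h to 48 h step, 0.31 ± 0.083 in WT and 0.54 ± 0.083 in CIDEA KO cells, was called in both (adjusted p = 0.022 and 0.00018). The WT step was not called without WT spheroids 24 h replicate 2 or WT spheroids 48 h replicate 2, with an adjusted p of up to 0.24 over the alternatives.

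*Myc*, on chromosome 15 (61985391 to 61990374), measured 55.7 and 51.2 TPM in WT ESCs, 53.2 and 59.8 TPM at 24 h and 50.9 and 56.6 TPM at 48 h. The 3 times overlapped in WT cells. The CIDEA KO libraries held 49.7 and 50.8 TPM in ESCs, 45.1 and 41.4 TPM at 24 h and 53.2 and 45.4 TPM at 48 h, so that only those of 24 h lay apart. Neither the difference from ESCs to 24 h (-0.24 ± 0.11) nor that from 24 h to 48 h (0.23 ± 0.11) was called (adjusted p = 0.14 and 0.21). The difference between ESCs and 48 h was -0.03 (95% interval -0.26 to 0.19) in WT and -0.01 (-0.24 to 0.21) in CIDEA KO cells. *Mycn* therefore made up 43.3 ± 0.566% (SD, n = 2) of the summed TPM of both genes in WT ESCs and 70.0 ± 0.636% at 48 h. Its share in CIDEA KO cells went from 41.7 ± 0.141% to 73.2 ± 2.33%.

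**Figure D3:**
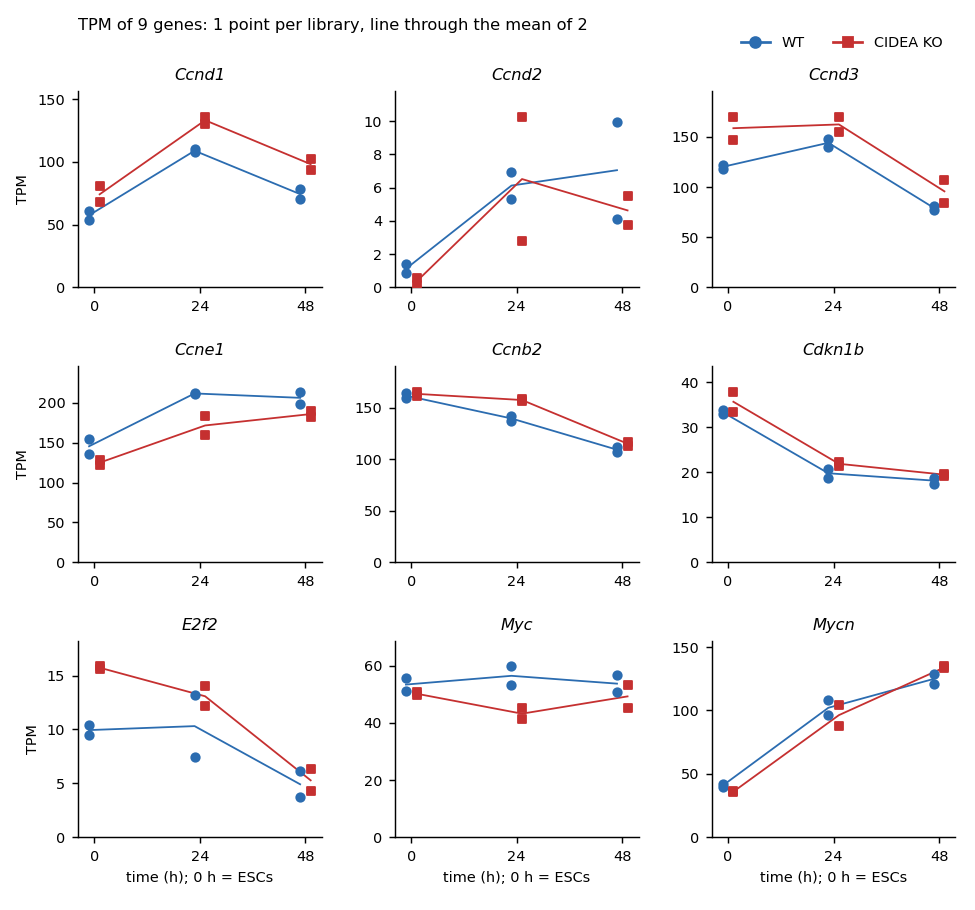
TPM of 9 genes against time in hours (0 h, ESCs), with 1 point per library (circles, WT; squares, CIDEA KO) and lines through the mean of 2 libraries. *Mycn* climbs from 35.7 to 41.9 TPM in ESCs to 121 to 135 TPM at 48 h while *Myc* stays between 41.4 and 59.8 TPM, and *Ccnd1* peaks at 24 h.

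The D-type cyclins, which couple outside signals to Cdk4 and Cdk6, each took their own course. *Ccnd1* measured 61.1 and 53.8 TPM in WT ESCs, 108 and 110 TPM at 24 h, and 70.5 and 78.1 TPM at 48 h. Without *Cidea* it measured 80.4 and 67.9 TPM, 130 and 136 TPM, and 93.8 and 103 TPM. The times did not overlap within either genotype. *Ccnd1* rose at 24 h by 0.87 ± 0.081 on the log2 scale in WT and 0.91 ± 0.081 in CIDEA KO cells (edgeR's quasi-likelihood test, adjusted p = 2.4e-07 and 9.6e-08). It then fell by 0.52 ± 0.080 and 0.37 ± 0.080 (adjusted p = 0.00027 and 0.0049) and at 48 h was still higher than in ESCs, by 0.34 and 0.54. The WT difference at 48 h was not called without WT ESCs replicate 2 or WT spheroids 48 h replicate 2, and the CIDEA KO fall after 24 h was not called without CIDEA KO spheroids 48 h replicate 1 (adjusted p up to 0.081). *Ccnd3* measured 122 and 118 TPM in WT ESCs, 148 and 140 TPM at 24 h and 77.6 and 80.9 TPM at 48 h. It fell between 24 h and 48 h by 0.87 ± 0.10 in WT and 0.65 ± 0.10 in CIDEA KO cells (adjusted p = 1e-05 and 0.00019), and no rise at 24 h was called in either.

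*Ccnd2* was the scarcest member in ESCs, with 19 to 157 estimated counts there, and is given in normalised CPM. WT libraries held 5.17 and 3.32 CPM in ESCs, 19.7 and 24.3 CPM at 24 h, and 17.1 and 16.4 CPM at 48 h. CIDEA KO libraries held 1.11 and 0.665 CPM, 14.1 and 9.87 CPM, and 10.4 and 12.6 CPM. ESCs and spheroids did not overlap in either genotype. The rise at 24 h was 2.37 ± 0.28 on the log2 scale in WT and 3.75 ± 0.32 in CIDEA KO cells (edgeR's quasi-likelihood test, adjusted p = 5.8e-06 and 6.1e-08). In TPM the same gene read 9.98 and 4.13 at 48 h in WT and 10.3 and 2.76 for CIDEA KO spheroids of 24 h, while a second protein-coding transcript supplied 0 to 50.3% of its TPM as a group mean. The WT call at 24 h was lost when TPM was tested with limma or when transcript lengths entered the fit, with adjusted p of up to 0.078. Summed over *Ccnd1*, *Ccnd2* and *Ccnd3*, D-type cyclin TPM was 178 ± 7.78 (SD, n = 2) in WT ESCs, 259 ± 2.83 at 24 h and 160 ± 3.54 at 48 h. The mean sums in CIDEA KO cells were 233, 302 and 198 TPM. *Ccnd1* supplied 32.1% of the sum in WT ESCs and 46.2% at 48 h, and *Ccnd3* 67.2% and 49.4%.

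**Figure D4:**
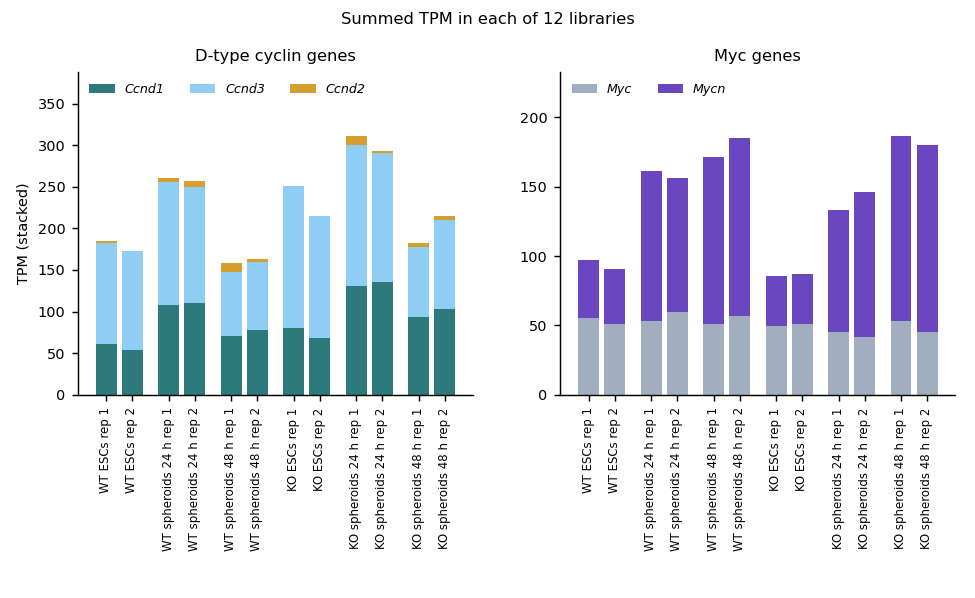
Stacked TPM of the 3 D-type cyclin genes (left) and of *Myc* and *Mycn* (right) in each of the 12 libraries. The D-type sum is highest in the 24 h spheroids of each genotype, *Ccnd2* is a thin band throughout, and the Myc sum grows through *Mycn*.

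Among the other cyclins, *Ccne1*, which with Cdk2 starts DNA replication, measured 136 and 155 TPM in WT ESCs, 211 and 212 TPM at 24 h and 214 and 198 TPM at 48 h. The CIDEA KO values were 122 and 128 TPM, 160 and 184 TPM, and 190 and 182 TPM. Spheroid libraries lay above the ESC libraries of their genotype without overlap. *Ccne1* rose at 24 h by 0.53 ± 0.080 in WT and 0.50 ± 0.080 in CIDEA KO cells (edgeR's quasi-likelihood test, adjusted p = 9.6e-05 and 0.00015), and neither 24 h to 48 h difference was called. Its paralog *Ccne2* stayed at 10.3 to 21.9 TPM. *Ccne2* was called only between CIDEA KO ESCs and 48 h spheroids (0.64 ± 0.19, adjusted p = 0.017), a call lost without any 1 of those 4 libraries, and the corresponding WT value was 0.27.

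The B-type cyclins, partners of Cdk1 in mitosis, went separate ways. *Ccnb2* measured 160 and 164 TPM in WT ESCs, 142 and 137 TPM at 24 h and 107 and 112 TPM at 48 h, and in CIDEA KO cells 161 and 166, 158 and 157, and 117 and 113 TPM. The 48 h libraries of both genotypes lay below all ESC and 24 h libraries. *Ccnb2* fell between ESCs and 48 h by 0.59 ± 0.078 in WT and 0.46 ± 0.078 in CIDEA KO cells (edgeR's quasi-likelihood test, adjusted p = 1e-05 and 0.00016), and both calls held under every alternative tried. The WT fall at 24 h (-0.27 ± 0.078, adjusted p = 0.023) was lost without any 1 of the 4 libraries compared. *Ccnb1* measured 222 to 310 TPM and *Ccna2* 138 to 165 TPM over the 12 libraries, and neither was called in any comparison.

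Among the kinases, *Cdk4* and *Cdk1* were abundant and *Cdk6* scarce. *Cdk6* held 21.5 and 22.9 CPM in WT ESCs, 13.2 and 18.2 CPM at 24 h, and 9.19 and 11.7 CPM at 48 h. In CIDEA KO cells it held 23.6 and 18.3, 10.6 and 14.2, and 8.87 and 8.91 CPM. Its 48 h libraries lay below the ESC libraries of their genotype. *Cdk6* fell at 48 h by 1.09 ± 0.22 in WT and 1.24 ± 0.23 in CIDEA KO cells (edgeR's quasi-likelihood test, adjusted p = 0.0011 and 0.00031), and the WT call was lost when TPM was tested with limma (adjusted p up to 0.084). The CIDEA KO fall at 24 h (-0.75 ± 0.22) was not called without CIDEA KO ESCs replicate 1 or CIDEA KO spheroids 24 h replicate 1, nor on the TPM scale, where the log2 ratio was -0.05. *Cdk4* supplied at least 99.0% of the summed TPM of *Cdk4* and *Cdk6* in every group, on average, and was called in no comparison.

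*Cdk1*, the kinase of mitosis, rose at 24 h by 0.30 ± 0.075 in WT and 0.33 ± 0.075 in CIDEA KO cells (edgeR's quasi-likelihood test, adjusted p = 0.0093 and 0.0040) and was not called at 48 h. The WT call was lost without WT ESCs replicate 1 or either WT 24 h library, and the CIDEA KO call without CIDEA KO ESCs replicate 1 or CIDEA KO spheroids 24 h replicate 1. *Cdk2* fell in WT cells, by 0.44 ± 0.11 at 24 h and 0.43 ± 0.11 at 48 h (adjusted p = 0.012 and 0.0090). In CIDEA KO cells its difference at 48 h was -0.16, and the interaction was not called. Both WT calls were lost without WT ESCs replicate 1, that of 24 h also without WT spheroids 24 h replicate 1 and that of 48 h also without WT spheroids 48 h replicate 2. The same 2 calls were lost when TPM was tested with limma, when transcript lengths entered the fit and with protein-coding transcripts alone.

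*Cdkn1b*, the Cdk inhibitor of the list, measured 32.9 and 33.8 TPM in WT ESCs, 18.8 and 20.8 TPM at 24 h and 17.5 and 18.8 TPM at 48 h. In CIDEA KO cells it measured 38.0 and 33.4 TPM, 22.4 and 21.4 TPM, and 19.7 and 19.3 TPM. Every spheroid library lay below every ESC library, and the 4 calls against ESCs held under every alternative. The fall at 24 h was 0.88 ± 0.12 on the log2 scale in WT and 0.78 ± 0.12 in CIDEA KO cells (edgeR's quasi-likelihood test, adjusted p = 2e-05 and 7e-05), with differences of -0.02 and -0.03 between 24 h and 48 h. Of the Cdc25 phosphatases, which activate Cdks, *Cdc25a* rose by 0.31 ± 0.10 and *Cdc25b* fell by 0.31 ± 0.11 between CIDEA KO ESCs and 48 h (adjusted p = 0.032 and 0.049). The first call was lost without any 1 of those 4 libraries, and the second under 17 of 22 alternatives. *Cdc25c*, at 9.69 to 17.8 TPM, and *Wee1*, the kinase that opposes Cdc25, were not called over time.

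The E2f activators, which switch on replication genes, were lower in spheroids for *E2f1* and *E2f2* and steady for *E2f3*. *E2f2* held 31.4 and 27.6 CPM in WT ESCs, 23.7 and 25.4 CPM at 24 h, and 11.4 and 12.8 CPM at 48 h. CIDEA KO libraries held 32.8 and 30.0, 29.3 and 21.8, and 12.1 and 14.1 CPM. The 48 h libraries lay below all others. *E2f2* fell between 24 h and 48 h by 1.02 ± 0.18 in WT and 0.97 ± 0.17 in CIDEA KO cells (edgeR's quasi-likelihood test, adjusted p = 0.00074 and 0.00092). In TPM, its 24 h libraries read 7.44 and 13.2 in WT, while a transcript without a coding annotation supplied 11 to 40.3% of its TPM as a group mean, and the WT step was not called when TPM was tested with limma or when transcript lengths entered the fit (adjusted p up to 0.15). The CIDEA KO step was not called with limma on TPM either (adjusted p up to 0.059). *E2f1* fell already at 24 h in WT cells (-0.53 ± 0.12, adjusted p = 0.0059) and at 48 h in both, by 0.48 ± 0.12 in WT and 0.58 ± 0.13 in CIDEA KO cells (adjusted p = 0.0070 and 0.0016). Without WT spheroids 24 h replicate 1 the first was not called, and without WT spheroids 48 h replicate 1 the second. The fall of *E2f1* at 24 h in CIDEA KO cells (-0.40 ± 0.12, adjusted p = 0.028) was lost without any 1 of the 4 libraries compared. Both 24 h calls of *E2f1* were lost when TPM was tested with limma, and that of CIDEA KO cells also when transcript lengths entered the fit. Its main transcript supplied 90.3% of its TPM in WT ESCs and 80.7% at 24 h, and 90.9% and 55.2% in CIDEA KO cells.

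*E2f3*, at 14.2 to 17.7 TPM, was called in no comparison. It made up 30.1 ± 1.27% (SD, n = 2) of the summed TPM of *E2f1*, *E2f2* and *E2f3* in WT ESCs and 42.2 ± 2.55% at 48 h, and 26.8 ± 1.48% and 43.0 ± 1.91% in CIDEA KO cells, while the sum went from 49.7 ± 0.636 to 39.5 ± 2.47 TPM and from 55.8 ± 0.849 to 37.7 ± 0.141 TPM. The pocket proteins *Rb1*, *Rbl1* and *Rbl2* were called in no comparison. Their TPM ranges over the 12 libraries, 5.77 to 17.7, 5.05 to 8.90 and 3.78 to 10.5, were wide within groups: *Rb1* measured 17.7 and 6.99 TPM in the 2 WT 48 h libraries, where it held 16.65 and 17.15 CPM.

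The replication licensing group, which loads the Mcm2-7 helicase onto origins, was nearly flat. All 10 members moved by less than 0.5 on the log2 scale in each comparison over time. The summed TPM of the 10 genes was 2038 and 2035 in WT ESCs, 2137 and 2066 at 24 h, and 1973 and 1963 at 48 h. The corresponding CIDEA KO sums were 2187 and 2222, 2117 and 2235, and 1961 and 2019. In each genotype the 48 h sums were the lowest, but TPM lacks the scaling between libraries that normalised CPM has. In normalised CPM, *Mcm4*, *Pcna* and *Mcm7* were higher in CIDEA KO 48 h spheroids than in ESCs (log2 ratios 0.02, 0.05 and 0.18). All other members of the group were lower. *Mcm7* rose at 24 h by 0.25 ± 0.064 in WT and 0.23 ± 0.064 in CIDEA KO cells (edgeR's quasi-likelihood test, adjusted p = 0.0094 and 0.013) and was still called at 48 h in CIDEA KO cells (0.18 ± 0.064, adjusted p = 0.047). *Mcm3* and *Mcm5* fell between WT ESCs and 48 h, by 0.29 ± 0.070 and 0.21 ± 0.070 (adjusted p = 0.0044 and 0.030), and *Mcm5* also between 24 h and 48 h (-0.25 ± 0.070, adjusted p = 0.029). *Cdt1*, the licensing factor that brings the helicase to the origin, fell between ESCs and 48 h by 0.34 ± 0.10 in WT and 0.32 ± 0.10 in CIDEA KO cells (adjusted p = 0.017 and 0.025). Its inhibitor *Gmnn*, and *Mcm2*, *Mcm4*, *Mcm6*, *Cdc6* and *Pcna*, were called in no comparison. *Cdt1* was also called at 24 h in CIDEA KO cells (-0.33 ± 0.10, adjusted p = 0.027).

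Each of these licensing calls was lost when 1 or another library was left out. Those of *Mcm7* at 24 h were lost without WT ESCs replicate 2 or WT spheroids 24 h replicate 1 in WT, and without either CIDEA KO ESC library or CIDEA KO spheroids 24 h replicate 1 in CIDEA KO cells, and its 48 h call under 16 of 22 alternatives. *Mcm3* lost its call without WT spheroids 48 h replicate 1. *Mcm5* lost that between ESCs and 48 h without any 1 of the 4 libraries, and that between 24 h and 48 h without WT spheroids 24 h replicate 1 or either WT 48 h library. *Cdt1* lost its WT call without WT ESCs replicate 1 or WT spheroids 48 h replicate 1, its 24 h call without either CIDEA KO ESC library or CIDEA KO spheroids 24 h replicate 2, and its CIDEA KO 48 h call without either CIDEA KO ESC library or CIDEA KO spheroids 48 h replicate 1.

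The mitosis genes also stayed close to their ESC level. Their summed TPM was 1731 and 1670 in WT ESCs, 1733 and 1711 at 24 h and 1547 and 1550 at 48 h, and in CIDEA KO cells 1657 and 1687, 1839 and 1847, and 1548 and 1547. The 48 h sums lay below all others, but TPM lacks the scaling between libraries that normalised CPM has. In normalised CPM, the CIDEA KO log2 ratios between ESCs and 48 h were 0.01, 0.07, 0.21 and 0.25 for *Aurkb*, *Bub1*, *Cdc20* and *Mad2l1*. Those of *Aurka* and *Plk1* rounded to 0.00, and those of *Birc5*, *Top2a*, *Bub1b* and *Mki67* were -0.06, -0.14, -0.16 and -0.66. *Cdc20*, the activator of the anaphase-promoting complex, rose at 24 h by 0.36 ± 0.10 in WT and 0.47 ± 0.10 in CIDEA KO cells (edgeR's quasi-likelihood test, adjusted p = 0.024 and 0.0040), and *Aurkb*, a kinase of the chromosomal passenger complex, by 0.42 ± 0.10 in WT cells (adjusted p = 0.0088). The WT calls of *Cdc20* and *Aurkb* were both lost without WT ESCs replicate 2 or WT spheroids 24 h replicate 1, and the CIDEA KO call of *Cdc20* without CIDEA KO ESCs replicate 1. Both WT calls were also lost when TPM was tested with limma or transcript lengths entered the fit. Between WT ESCs and 48 h, *Aurka* (-0.30 ± 0.085), the spindle checkpoint kinase *Bub1b* (-0.28 ± 0.067) and the topoisomerase *Top2a* (-0.19 ± 0.058) fell (adjusted p = 0.015, 0.0048 and 0.025). *Bub1b* also fell between 24 h and 48 h, by 0.25 ± 0.067 in WT and 0.22 ± 0.067 in CIDEA KO cells (adjusted p = 0.023 and 0.044). The *Aurka* call was lost without either WT ESC library or WT spheroids 48 h replicate 1, and that of *Bub1b* at 48 h without WT ESCs replicate 1 or WT spheroids 48 h replicate 1. The *Top2a* call and the 24 h to 48 h call of *Bub1b* in WT were lost without any 1 of the 4 libraries compared, and the CIDEA KO call of *Bub1b* under 15 of 22 alternatives. That WT call of *Bub1b* was also lost when TPM was tested with limma or transcript lengths entered the fit. In TPM its log2 ratio was -0.05, and a retained-intron transcript supplied 24.3% of *Bub1b* TPM in WT ESCs, 0.808% at 24 h and 17.4% at 48 h.

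*Mki67*, the proliferation marker Ki-67, fell between CIDEA KO ESCs and 48 h by 0.66 ± 0.18 (edgeR's quasi-likelihood test, adjusted p = 0.029), from 358 and 381 CPM to 244 and 224 CPM. The call was lost without any 1 of those 4 libraries or any 1 of the WT libraries of the same times, with adjusted p of up to 0.20. At 24 h the 2 CIDEA KO libraries held 230 and 363 CPM, the lower one being the library that stood apart, and the WT difference at 48 h was -0.35. *Plk1*, *Bub1*, *Mad2l1* and *Birc5* were called in no comparison.

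The next question was whether loss of *Cidea* altered these genes. Among ESC libraries, 1 member was lower without *Cidea* and none was higher, where 0.987% of all genes were called lower and 0.275% higher. The member was *Ccnd2* (-2.25 ± 0.32, edgeR's quasi-likelihood test, adjusted p = 0.00067), at the 1.11 and 0.665 CPM given above against 5.17 and 3.32 CPM. This call was lost when TPM was tested with limma, when transcript lengths entered the fit and when only the ESC libraries were fitted, with adjusted p of up to 0.81. Without either CIDEA KO 24 h library, 2 members were called. At 24 h no member was called (background 0.448% higher and 1.02% lower), with 10 members (22.2%), and 12.5% of all genes, at an unadjusted p under 0.05, 2 members called by DESeq2 and 0 by limma. *Ccnd2* differed there by -0.88 on the log2 CPM scale and by 0.09 in TPM. Members were called at 24 h when either CIDEA KO 24 h library was left out. More were called without replicate 2, a fit in which only the library that stood apart represented that group. At 48 h, where 0.195% of all genes were higher and 0.476% lower, *Ccnd1* was higher in CIDEA KO cells (0.44 ± 0.080, adjusted p = 0.0095). That call was lost on the TPM scale with limma, when transcript lengths entered the fit, and without WT spheroids 48 h replicate 1 or CIDEA KO spheroids 48 h replicate 2, which left 0 members called, and 2 members were called without either CIDEA KO 24 h library or without CIDEA KO spheroids 48 h replicate 1.

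As a mean of the 3 times, CIDEA KO cells had 4 members higher and 3 lower than WT cells, where 2.19% of all genes were called higher and 2.84% lower. The 4 higher were *Ccnd1* (0.32 ± 0.046, edgeR's quasi-likelihood test, adjusted p = 0.00019), *Ccnd3* (0.28 ± 0.058, adjusted p = 0.0057), *Mcm5* (0.17 ± 0.040, adjusted p = 0.016) and *Cdk1* (0.17 ± 0.043, adjusted p = 0.024). The 3 lower were *Ccnd2* (-1.22 ± 0.17, adjusted p = 9.6e-05), *Ccne1* (-0.24 ± 0.046, adjusted p = 0.0035) and *Wee1* (-0.21 ± 0.058, adjusted p = 0.035). All of these called members, and the uncalled *Cdc25a*, had CIDEA KO libraries that did not overlap the WT libraries in CPM at any of the 3 times. *Ccnd1* is the member whose call held under every alternative. The other 6 calls were lost when TPM was tested with limma or transcript lengths entered the fit, which left 1 call. *Mcm5* was also lost under 4 of the left-out libraries, and *Cdk1* and *Wee1* each under 12 of 21 alternatives in all. The count was 4 without WT spheroids 24 h replicate 2 or CIDEA KO spheroids 48 h replicate 2. All 6 differences of *Ccnd1*, *Ccnd3*, *Mcm5*, *Cdk1*, *Ccne1* and *Wee1* were under 0.5 on the log2 scale, as were those of 44 of the 45 members, and no mitosis gene, E2f factor, pocket protein or Myc gene was called. *Wee1* measured 32.5 and 30.6 TPM in WT and 25.6 and 29.9 TPM in CIDEA KO ESCs, and its CIDEA KO libraries lay below the WT libraries at all 3 times.

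**Figure D5:**
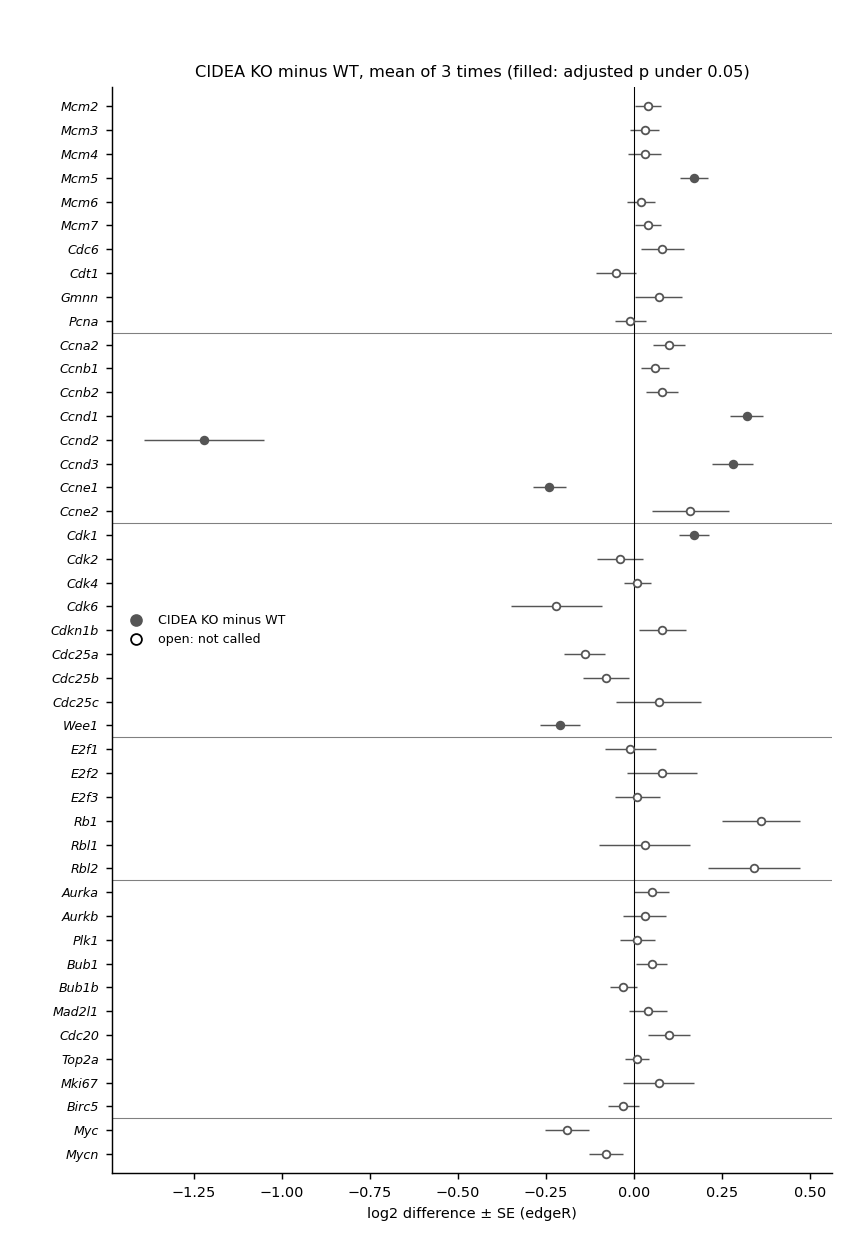
Log2 difference between CIDEA KO and WT cells, as the mean of the 3 times, for the 45 genes, with bars of 1 SE from edgeR; horizontal lines separate the role groups and filled points were called. *Ccnd2* lies at -1.22 and all other genes lie within 0.5 of 0.

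Whether the course over time differed between genotypes was tested as an interaction. No member was called at 24 h or at 48 h by edgeR's quasi-likelihood test, by DESeq2 or by limma, and 0.0115% and 0.0402% of all genes were called. DESeq2 gave an adjusted p for only 37 of the 45 members in the 48 h interaction. At an unadjusted p under 0.05 there were 3 members in each, or 6.67%, beside 5.91% and 5.75% of all genes. The values farthest from 0 were those of *Ccnd2*, 1.38 ± 0.42 at 24 h and 1.71 ± 0.42 at 48 h (adjusted p = 0.82 and 0.22). For *Mycn* the 48 h value was 0.36 (95% interval 0.11 to 0.61, adjusted p = 0.54). A member was called at each time without CIDEA KO spheroids 24 h replicate 2, a fit in which only the library that stood apart represented that group. Leaving out CIDEA KO spheroids 24 h replicate 1 gave a call at 48 h.

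A further 126 genes of the same processes, listed by symbol, put the members beside their pathways, and all 126 passed the filter. Their lists were written with earlier results of these data known, so their counts are descriptions and not an independent comparison with all genes. The list counts between ESCs and 48 h below stand beside 11.1% of all genes higher and 12.5% lower in WT cells, and 12.1% and 12.8% in CIDEA KO cells. Of 28 Myc target genes of ribosome biogenesis and growth, 17 rose and none fell between WT ESCs and 48 h (median 0.24), and 22 rose and none fell in CIDEA KO cells (median 0.45). *Cad*, which starts pyrimidine synthesis, rose by 0.81 ± 0.082 in WT and 0.84 ± 0.082 in CIDEA KO cells, and *Srm*, the spermidine synthase, by 0.79 ± 0.082 and 1.04 ± 0.082 (edgeR's quasi-likelihood test, adjusted p = 3.3e-07 and 4.3e-07 in WT). In the Myc network of 10 genes, 1 rose and 2 fell in WT cells, among them *Mycl*, the third Myc gene (0.73 ± 0.18), and *Mlx*, a dimerisation partner of the extended network (-0.76 ± 0.12). The members' own medians in these comparisons were -0.07 and -0.01.

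Of 35 genes of the replication origin and fork, 2 rose and 7 fell between WT ESCs and 48 h (median -0.07), and 5 rose and 5 fell in CIDEA KO cells (median -0.01). The WT falls were led by *Pola1*, a subunit of DNA polymerase alpha, at -0.49 ± 0.10, and *Lig1*, the replicative DNA ligase, at -0.46 ± 0.062, against an uncalled -0.17 in CIDEA KO cells (edgeR's quasi-likelihood test, adjusted p = 0.0015 and 1.2e-05). Of 26 genes of the spindle and kinetochore, none rose and 10 fell (median -0.19), and in CIDEA KO cells 1 rose and 11 fell. The falls were led by *Nusap1* (-0.74 ± 0.082) and *Hmmr* (-0.64 ± 0.080), which act on spindle microtubules. Among 6 other Cdk inhibitors, *Cdkn1c* (p57) was called, rising by 1.67 ± 0.13 in WT and 1.89 ± 0.13 in CIDEA KO cells (adjusted p = 4.8e-09 and 8.3e-10), opposite to *Cdkn1b*, and in CIDEA KO cells *Cdkn2b* (p15), named after its value was seen, was called as well (2.09 ± 0.58, adjusted p = 0.011). Of 21 genes of cell cycle transcription and degradation, 8 rose and 1 fell in WT cells, led by the repressors *E2f6* (1.14 ± 0.17) and *E2f7* (0.92 ± 0.12), while *E2f1* and *E2f2* fell. Over all times, 5 of the 126 (3.97%) were higher without *Cidea* and 2 (1.59%) lower, near the 2.19% and 2.84% of all genes. *Cdkn1a* (p21, 0.45 ± 0.078), *Tfdp1*, the dimer partner of E2f factors (0.28 ± 0.047), and the cytokinesis gene *Anln* (0.21 ± 0.042) were higher, and *Srm* (-0.24 ± 0.047) and the polyamine enzyme *Odc1* (-0.16 ± 0.034) lower (adjusted p from 0.0012 to 0.0072).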

How the data were processed

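RNA was sequenced from 12 libraries, 2 in each of 6 groups defined by genotype and time. Per the submitters' processing notes, the authors used FastQC, Trimmomatic 0.33 and kallisto 0.43.1, which matches reads to a set of transcripts by pseudoalignment, and deposited for each transcript an estimated count and a TPM value. The notes name the builds mm10 and GRCm38, and the transcript set is not given in the sources used here. The deposited estimated counts are raw and need not be whole, whereas the deposited TPM values are scaled by transcript length within each library. Replicates were not pooled.

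Transcripts were assigned to genes with GENCODE M21 (GRCm38), which matched 98.5% of 115270 transcripts, and unmatched ones held 0.659 to 0.709% of the counts and were left out. Values were summed per gene, and summed estimated counts were rounded to whole numbers and tested with edgeR 4.0.16 (R 4.3.3; TMM scaling, the default filter with a minimum count of 10, a robust quasi-likelihood fit of all 12 libraries) and Benjamini-Hochberg adjustment over 17424 genes at 0.05. CPM are TMM-normalised, and intervals are 95% intervals of the same fit. Scaling factors were 0.985 to 1.02. Alternatives were DESeq2 1.42.0, limma 3.58.1 on log2(TPM + 1) and log2(TPM + 0.1), other filters and scalings, transcript lengths as offsets, protein-coding transcripts alone, the compared groups alone, a replicate block and leaving out each library. The test was checked on simulated counts.

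The members and lists were chosen with earlier results of these data known. All 45 members were accounted for, called ones by name, and from each further list up to 2 called genes of largest change were named in the WT 48 h and the overall genotype comparison. Same-numbered libraries did not deviate together (r from -0.049 to 0.051 over 15 group pairs), so replicate numbers were not used as pairs. Taken over all genes together, the 2 libraries of no group agreed within sampling noise (chi-square per degree of freedom 11.2 to 32.7).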

Additional observations from a re-analysis of the deposited data

Results flagged for a closer look

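*Rb1*, which restrains E2f factors, differed in direction between genotypes at 24 h. It moved by -0.31 on the log2 scale between WT ESCs and 24 h spheroids and by 0.30 between the CIDEA KO groups, with libraries of the compared groups that did not overlap in CPM in either genotype, whereas in TPM they overlapped in both. Neither change was called, and the interaction of 0.61 ± 0.27 was not called either (edgeR's quasi-likelihood test, adjusted p = 0.84). *Wee1*, which restrains Cdk1, moved by -0.07 between 24 h and 48 h in WT and by 0.07 in CIDEA KO spheroids. Its groups again did not overlap in CPM, though those of CIDEA KO overlapped in TPM, and this difference was not tested. Both *Wee1* changes were smaller than the median gap between replicates over the members, 0.0782 to 0.157 on the log2 scale in the spheroid groups. With 2 libraries per group, many members did not overlap in CPM in a comparison, and the share over all genes was not taken.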

How the results depend on the processing

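Counts of called members moved by more than 1.5 times under these alternatives. With limma on log2(TPM + 1) and on log2(TPM + 0.1), the 12 calls at 24 h in WT became 5 and 5, the 7 between 24 h and 48 h became 3 and 3, the 11 at 24 h in CIDEA KO became 7 and 7, the 1 genotype call in ESCs and the 1 at 48 h became 0, and the 7 over all times became 1. The share of all genes called fell under both fits as well. It went from 15.0% to 7.96% and 7.62% at 24 h in WT, and from 8.14% to 2.79% and 2.36% between 24 h and 48 h. At 24 h in CIDEA KO it went from 18.6% to 9.49% and 9.28%, and over all times from 5.03% to 1.06% and 1.02%. With transcript lengths as offsets the WT counts became 6 and 2, the genotype counts in ESCs and at 48 h 0, and that over all times 1. The shares of all genes called with these offsets were 7.56% and 3.24% for those WT comparisons and 1.69% over all times. The ESC genotype count was 2 with DESeq2 and 0 with the compared groups alone. The genotype count at 24 h, 0, became 2 with DESeq2, 1 with DESeq2's size factors, 3 without the filter and 1 with at least 10 counts in every library. Without the filter, the genotype count at 48 h was 2 and the 48 h interaction count 1. The cause was not tested. A fit of the compared groups alone was not run for the mean over all times.

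With each library left out in turn, counts ranged from 5 to 14 (WT 24 h), 4 to 9 (WT 24 h to 48 h), 10 to 21 (WT 48 h), 5 to 12 (CIDEA KO 24 h), 4 to 15 (CIDEA KO 24 h to 48 h) and 10 to 19 (CIDEA KO 48 h). For genotype they ranged from 1 to 2 in ESCs, 0 to 6 at 24 h, 0 to 2 at 48 h and 4 to 9 over all times, and for both interactions from 0 to 1. With a replicate block the WT counts stayed at 12, 7 and 17 and those of CIDEA KO were 11, 5 and 14, and 3 of 78 single calls were lost. Depth limited *Ccnd2* most, whose lowest library held 19 counts.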
